A study of Mus musculus with 6 samples.

Results

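The mouse LncRNA microarray of this study carried 1217 probes named humanlincRNA, each with a number and a + or - sign, among 59729 probes apart from control spots. They were taken by name alone, with no measured value in the choice. The 1217 members bore 609 numbers, of which 608 had a + probe and a - probe and 1 had a - probe only. Each member was printed as 1 spot.

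The heart failure (HF) group were male C57BL/6J mice injected subcutaneously for 1 week with 40 mg/kg/day of isoproterenol, which activates β-adrenergic receptors. Saline was injected in the control group. The study describes RNA of 5 mice mixed for each group and tissue, while its extraction protocol collects plasma from 10 mice. RNA of heart, whole blood and plasma was hybridised in 1 colour, as 1 mixture on 1 array for each of the 6 conditions. There were no replicates, so every difference compares 2 mixtures and carries no test or p value. Errors given with a fold change are those of the scanner software within the arrays, combined over the pair, and leave out all spread between mice.

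Large intergenic noncoding RNAs (lincRNAs) are transcripts that lie between protein coding genes, and many were first found as stretches of chromatin that carry the histone marks of active promoters and transcribed regions. Such a stretch shows where transcription takes place but not its strand, which is why a microarray can carry a probe for each strand of a region. LincRNAs are usually less abundant and less conserved in sequence than mRNAs. By their name, the members stand for places in the mouse genome that correspond to human lincRNA regions. A signal shows RNA that binds the probe and not that a transcript is conserved.

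Positions on mm9 were held for 168 of the 609 numbers, from the study's lists of changed LncRNAs. These regions lay on 20 chromosomes and spanned from 1494 to 117168 bp, with a median of 14101 bp, which is the length of a region and not of a spliced RNA. For the 10 numbers listed with both signs, both probes had the same start and end. The strand was given as plus for all 178 listed members whatever the sign in the name, so the sign is used below as a name only. Probe sequences were not used here.

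Some properties of the arrays bear on all values given here. The control plasma array was nearly the same as the control whole blood array. Of the 153 members detected on both, 145 (94.8%) were within 2-fold of each other, and the median absolute difference was 0.26 on the log2 scale, where the median error within the arrays was 0.23. Over all probes detected on both, 94.3% were within 2-fold. In the HF mixtures, 23 of 124 members (18.5%) were within 2-fold between whole blood and plasma, with a median absolute difference of 2.46. The arrays of control whole blood and control plasma were also scanned at another time than the other 4 arrays. In whole blood and plasma, scan time and HF therefore cannot be told apart, whereas both heart arrays were scanned together. Whether the control plasma mixture held RNA of whole blood was not tested, and in the plasma values below a difference between HF and control cannot be told apart from one between plasma and whole blood. Blood cell markers differed between the mixtures. Of 3 matched erythroid genes (of 9 in the list), 3 were detected in control plasma and 2 in HF plasma, and their summed log2 level was 18.61 in control plasma and 13.51 in HF plasma, beside 18.67 and 18.41 in control and HF whole blood. Of 9 matched cardiomyocyte genes (of 15), 9 were detected on each heart array, and in whole blood 4 in control and 9 in HF, with a summed log2 level there of 14.50 and 16.80. Of 5 matched neutrophil genes (of 8), 2 were detected in control and 5 in HF whole blood, at 9.90 and 14.88. In heart, the summed log2 level of the neutrophil genes was 8.50 in control and 11.85 in HF, that of the fibroblast genes 13.23 and 14.57, and that of the platelet genes 9.75 and 7.88. The part of these cells in the results was not tested, and in mixed RNA fewer cells of a type and less RNA per cell cannot be told apart.

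Most human lincRNA probes were not well above background on these arrays. A member counted as detected on an array if its spot was well above background and was not marked as an outlier. Of the 1217 members, 788 (64.7%) were detected on none of the 6 arrays, against 39.9% of all probes. With a weaker flag, positive and significant, these shares were 26.8% (326 members) and 12.2%. At the other end, 71 members (5.83%) were detected on all 6 arrays, against 12.6% of all probes. In control heart 267 members (21.9%) were detected, and in HF heart 115 (9.45%). Control whole blood gave 172 (14.1%) and HF whole blood 188 (15.4%). Control plasma gave 226 (18.6%) and HF plasma 243 (20.0%). Control heart was thus the array with most members detected and HF heart the array with fewest, while with the weaker flag HF plasma had most, 591 against 557 in control heart. The share of all probes detected was 47.3% in control heart, 35.1% in HF heart, 25.0% and 29.8% in control and HF whole blood, and 33.5% and 29.0% in control and HF plasma. Members were detected less often than all probes on every array.

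The probes named mouselincRNA, 691 in number and also in + and - pairs, came close to the human set. They were detected at 23.0% in control heart, 11.1% in HF heart, 14.3% and 20.0% in control and HF whole blood, and 21.0% and 24.9% in control and HF plasma. The 3457 probes named MM9LINCRNAEXON, named for lincRNA exons on mm9, were detected more often, between 22.8% and 38.7%. Of 308 negative control spots, between 0 and 3 were well above background on an array. The detected members gave dim spots, on a scale that depends on how well each probe binds as well as on its RNA. Their median normalized log2 signal was 4.98 in control heart, where that of all detected probes was 6.05, and 5.84 against 6.95 in HF heart. The lowest signal of a detected member was 3.63 in control heart and 4.73 in HF heart, so the array of HF heart needed a brighter spot for detection. In HF plasma the order was turned, with a median of 7.71 for the members and 7.46 for all detected probes.

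The arrays that detected a member formed a few common patterns. Of the 429 members detected at least once, 176 appeared on a single array (14.5% of the 1217, against 13.7% of all probes), which was HF plasma for 64, control heart for 55, HF heart for 4, control plasma for 17, and whole blood for 12 (control) and 24 (HF). Another 23 members were detected on every array but HF heart. No heart array but at least 1 blood array detected 157 members (12.9%, against 11.4% of all probes), and at least 1 heart array but no blood array detected 66 (5.42%, against 13.7%). Only 4 members were detected on all 4 blood arrays and on neither heart array, namely humanlincRNA0212+, humanlincRNA1016-, humanlincRNA1211+ and humanlincRNA2473+, and these were singled out after their values were seen. HumanlincRNA1969+ was bright in control heart alone, at 15.76 against 2.53 in HF heart, but its spot was marked as an outlier and it counts as not detected.

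The 2 probes of a number were seldom detected together. In control heart, 33 of the 608 numbers with both probes had both detected, 109 had the + probe only and 92 the - probe only. HF heart gave 9, 56 and 41. Control whole blood gave 15, 83 and 59, and HF whole blood 17, 84 and 70. Control plasma gave 30, 91 and 75, and HF plasma 27, 102 and 87. Among numbers with any probe detected, both were detected in between 8.49% (HF heart) and 15.3% (control plasma). The + probe was the more frequent on each of the 6 arrays, by 14 to 24 numbers, but over the 6 arrays together 214 numbers had their + probe and 215 their - probe detected at least once. Detection of the - probe was somewhat more frequent where the + probe was detected. In control heart the - probe was detected for 23.2% of the numbers whose + probe was detected and for 19.7% of the others, in HF heart for 13.8% and 7.55%, and in control plasma for 24.8% and 15.4%. Of the mouselincRNA pairs with any probe detected, between 2.70% and 14.9% had both. Only 5 numbers had both probes detected on all 6 arrays, humanlincRNA0318, humanlincRNA0671, humanlincRNA1396, humanlincRNA2397 and humanlincRNA2410.

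**Figure D1:**
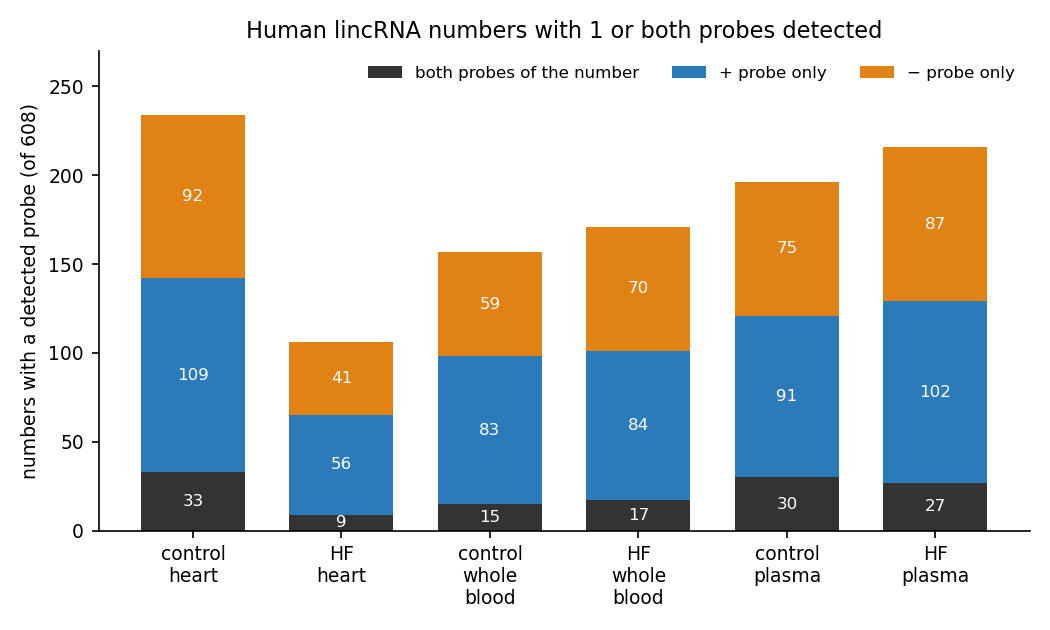
Numbers of human lincRNA regions with a detected probe on each of the 6 arrays, out of 608 that carry a + and a - probe (y axis, count). Black parts of a bar are numbers with both probes detected, blue those with the + probe only and orange those with the - probe only. Both probes were detected for 9 numbers in HF heart and for 33 in control heart.

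In the heart, human lincRNA probes were lower in HF far more often than higher. Of the 110 members detected in both control and HF heart, 47 (42.7%) fell at least 2-fold and 5 (4.55%) rose at least 2-fold. Among all 20065 probes detected on both, 12.9% were lower and 13.9% higher. The median log2 fold change was -0.83 for the members (quartiles -1.36 and -0.22) and 0.02 for all probes, and 92 of the 110 members (83.6%) had a negative change. Of the 74 mouselincRNA probes detected on both, 27.0% were lower and 2.70% higher, with a median of -0.61. For 809 MM9LINCRNAEXON probes these shares were 23.1% and 8.65%, with a median of -0.36. A background correction by normexp, which draws dim spots together, left 19 members lower and 1 higher, with a median of -0.44. With normexp, 1299 of all probes detected on both arrays were lower and 1024 higher, with a median of 0.01. Without normexp these all-probe counts were 2588 and 2789. Scaling each array to its 75th percentile moved the median change of all probes, detected or not. It was 0.50 in heart, -0.43 in whole blood and 0.37 in plasma, where quantile normalization gave 0.02, 0.00 and 0.01. Over probes detected on both arrays, the medians were 0.02, -0.13 and 0.21 with quantile normalization and 0.20, -0.35 and 0.09 with this scaling. Under that scaling 46 members were lower and 5 higher in heart, and the share of higher calls was 9.80% for members but 62.1% for all probes, against 9.62% and 51.9% with quantile normalization.

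The shift was not limited to dim members. Among members with a mean log2 signal under 6 over the heart arrays, 11 of 47 (23.4%) were at least 2-fold lower, against 5.43% of all probes in that range. From 6 to 8, 16 of 40 were lower, against 16.2%. From 8 to 10, 13 of 15 (86.7%) were lower, against 18.4%, and from 10 upwards 7 of 8 (87.5%), against 13.4%. None of the 23 members above 8 was at least 2-fold higher. These shares cover members detected on both arrays. With a lowest detected signal of 4.73 in HF heart, a dim member could fall only so far before it left the comparison. The 157 members detected in control heart only are not part of these shares, and no fall is read from their lack of detection. Neutrophil and fibroblast genes were higher and platelet genes lower in HF heart, and their part in the fall of the members was not tested.

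The largest falls in HF heart were modest. HumanlincRNA0847- read 11.53 in control and 9.18 in HF heart, a log2 fold change of -2.34 ± 0.20 (error within the arrays). HumanlincRNA0806+ read 9.70 and 7.63 (-2.06 ± 0.21). HumanlincRNA0955+ changed by -1.97 ± 0.30, humanlincRNA0671+ by -1.96 ± 0.34 and humanlincRNA0498- by -1.93 ± 0.25. The falls of these 5 members thus lay between 3.81-fold and 5.08-fold. After normexp humanlincRNA0847- and humanlincRNA0806+ stood at -2.05 and -1.81. HumanlincRNA0955+, humanlincRNA0671+ and humanlincRNA0498- then stood at -0.97, -0.92 and -0.99, under 2-fold. Of the 5 brightest members detected on all 6 arrays, 4 were at least 2-fold lower in HF heart. HumanlincRNA2330+ read 12.66 in control and 11.07 in HF heart (-1.59 ± 0.20), and humanlincRNA2199+ at chr3:18677405-18693778 read 12.21 and 10.45 (-1.76 ± 0.20). HumanlincRNA0065- changed by -1.70 ± 0.20 and humanlincRNA1773+ by -1.50 ± 0.20. The remaining humanlincRNA0318- stayed just under 2-fold, at -0.95 ± 0.20.

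Of the 5 rises in heart, 3 stood among neighbouring spots that rose as well. For each member the median change of the neighbouring spots was taken over a window of 5 rows and 5 columns, without the member itself and relative to the whole array. HumanlincRNA0622- (chr14:82023942-82045340) read 4.33 in control and 11.06 in HF heart, a log2 fold change of 6.73 (4.41 after normexp), and its neighbours rose by a median of 4.16. A negative control spot next to it had a signal of 6.69 in control heart and 3195 in HF heart. HumanlincRNA0381+ changed by 2.26 with its neighbours at 1.48, and its change was -0.85 after normexp. HumanlincRNA1037+ changed by 1.19 with its neighbours at 1.95. The other 2 rises had quiet neighbours. HumanlincRNA1050- read 5.54 and 6.70 (1.17 ± 0.23, neighbours at -0.01), and humanlincRNA1151+ read 4.83 and 5.84 (1.02 ± 0.27, neighbours at -0.09). After normexp these 2 stood at 0.56 and 0.39, under 2-fold. Without members whose neighbours shifted by 1 or more, 2 members rose and 47 fell at least 2-fold in HF heart. Of all spots of the array, 1.51% had neighbours shifted that far.

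Many members were detected on 1 heart array only, where HF heart needed a brighter spot for detection. Of the 272 members detected on any heart array, 157 (57.7%) were detected in control heart only and 5 (1.84%) in HF heart only. Among all probes 28.1% were detected in control heart only, and 873 of 29112 in HF heart only. For a member well above background on 1 array only, a lower limit of its fold change was set by the dimmest probe well above background on the other array, or by the member's own signal there if that was higher. That limit was under 1 for 103 of the 157, so their loss from detection gives no fold, and it reached 2-fold for 7, at most 2.93-fold. The limit reached 2-fold for each of the 5 members seen in HF heart only. This follows largely from the detection floors. The lowest signal of a detected member was 4.73 in HF heart, while the dimmest probe well above background in control heart read 3.56. These counts were not set beside all probes, and nothing particular to the members is read from them. HumanlincRNA0678+ (chr8:10639197-10667141) read 10.71 in HF heart, at least 142-fold over control, but its neighbours rose by a median of 2.93. HumanlincRNA0889- was at least 5.65-fold higher (neighbours at -0.67) and humanlincRNA1643- at least 4.06-fold higher (neighbours at 0.72).

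**Figure D2:**
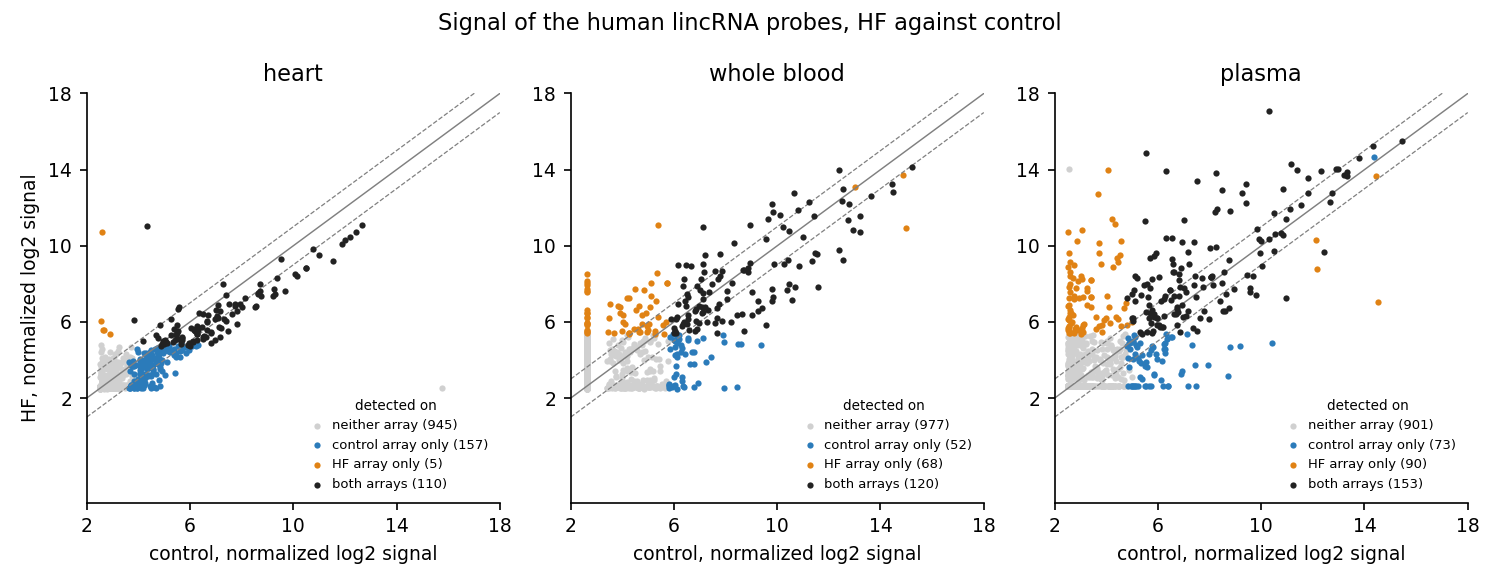
Normalized log2 signal of the 1217 human lincRNA probes in HF (y axis) against control (x axis) for heart, whole blood and plasma. Points are members, coloured by the arrays that detected them; the solid line marks equal signal and the dashed lines 2-fold differences. Of the members detected on both heart arrays 92 of 110 had a lower signal in HF, while in plasma 108 of 153 had a higher one.

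**Figure D3:**
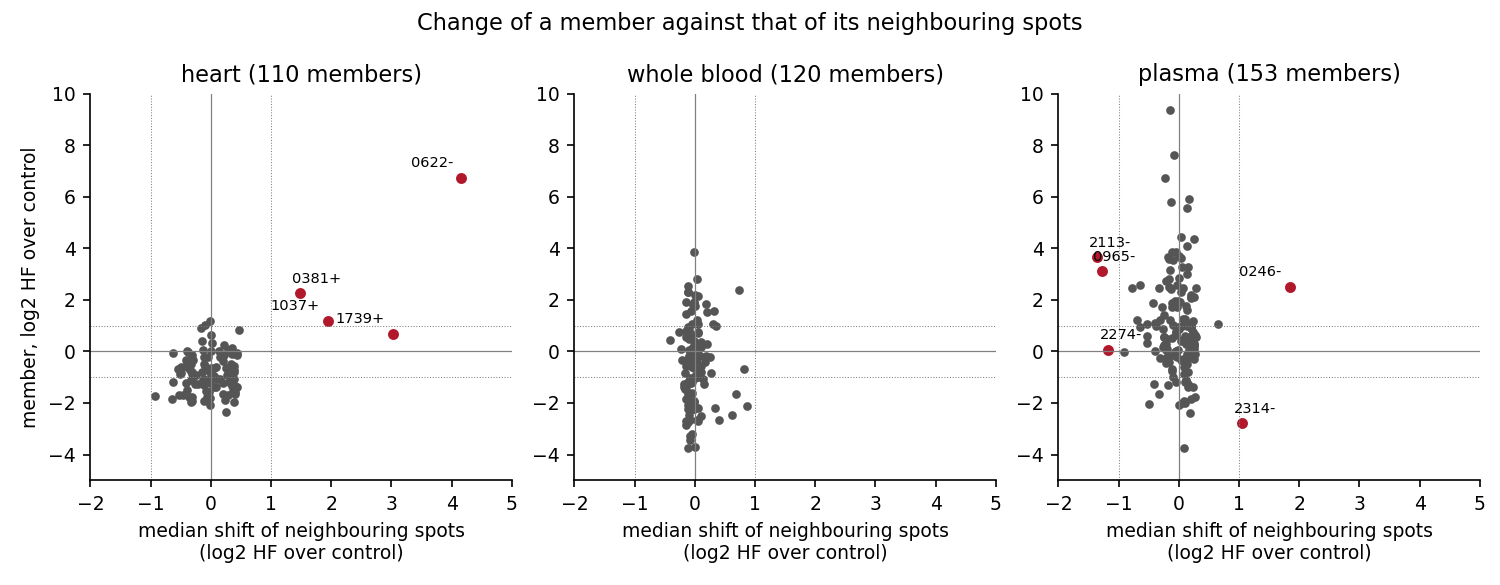
Log2 fold change of each member detected on both arrays of a tissue (y axis) against the median shift of the spots around it (x axis, log2 HF over control, relative to the whole array). Red points are members whose neighbours shifted by 1 or more. In heart 4 members did so, among them humanlincRNA0622- with neighbours at 4.16, and in whole blood none.

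In whole blood the members moved both ways, more often down. Of the 120 members detected on both arrays, 42 (35.0%) were at least 2-fold lower in HF and 22 (18.3%) higher. Over all 11938 probes detected on both, 26.8% were lower and 21.4% higher. The median log2 fold change was -0.42, with quartiles of -1.51 and 0.67, and -0.13 over all probes. Of 76 mouselincRNA probes detected on both, 35.5% were lower and 22.4% higher, with a median of -0.31. Of 626 MM9LINCRNAEXON probes, 28.6% were lower and 20.0% higher. The members' largest fall was that of humanlincRNA1918+, from 11.57 in control to 7.84 in HF (-3.73 ± 0.21). HumanlincRNA2410- followed with 9.55 and 5.85 (-3.70 ± 0.29), then humanlincRNA1828+ with -3.43 ± 0.22, humanlincRNA0965+ with -3.27 ± 0.21 and humanlincRNA1728- with -3.22 ± 0.32. Apart from humanlincRNA2410-, these members were within 2-fold in plasma, at 0.59, -0.79, -0.36 and 0.07 on the log2 scale in the same order. With the 75th percentile humanlincRNA1828+ and humanlincRNA0965+ passed 2-fold in plasma, both at -1.08.

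The largest rise in whole blood was that of humanlincRNA2410+, from 7.13 to 10.99 (3.86 ± 0.24). HumanlincRNA1543- rose from 6.16 to 8.98 (2.82 ± 0.31) and humanlincRNA1432+ from 6.45 to 8.97 (2.52 ± 0.28). HumanlincRNA1396- changed by 2.38 ± 0.20 and humanlincRNA1016- by 2.31 ± 0.24. None of the 120 members had neighbours shifted by 1 or more in whole blood. A further 68 members were detected only in the HF and 52 only in the control mixture. These were 28.3% and 21.7% of the 240 detected on either, against 28.1% and 14.4% among all probes. Apart from members bright in control whole blood but marked as outliers there, 65 of the 68 remained. HumanlincRNA0933+ read 11.09 in HF and was at least 39.8-fold higher there, while humanlincRNA0117+ (chr1:168639175-168676523) was at least 18.4-fold and humanlincRNA2350+ at least 10.4-fold lower in HF.

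In plasma the members moved up. Of the 153 members detected on both plasma arrays, 62 (40.5%) rose at least 2-fold and 19 (12.4%) fell at least 2-fold. Among all 12377 probes detected on both, 32.1% were higher and 25.6% lower. The median log2 fold change was 0.59 for the members, with quartiles of -0.19 and 2.07, and 0.21 for all probes. The members detected on both plasma arrays with a mean log2 signal of 10 or more were higher in 20 of 40 cases and lower in 1 (2.50%), against 39.8% and 27.6% of all probes of that range. From 8 to 10, 36.7% of 30 members were higher and 26.7% lower, against 34.8% and 34.3%. From 6 to 8, 41.2% of 68 were higher and 14.7% lower, against 30.2% and 25.2%, and under 6 the median of 15 members was -0.10, where that of all probes was 0.37. The mouselincRNA probes were alike, with 37.6% of 101 higher, 18.8% lower and a median of 0.52. So were the MM9LINCRNAEXON probes, with 38.9% of 718 higher and 17.4% lower. Each array was scaled to the same distribution, so a member's rise is relative to the other RNA of that mixture. The part of the lower erythroid level in HF plasma was not tested.

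Some of the rises in plasma were very large. HumanlincRNA1211+ (chr1:63433035-63443139) read 5.53 in control and 14.90 in HF plasma, a log2 fold change of 9.36 ± 0.30 or 658-fold. In whole blood it read 6.11 and 6.27, and it was not detected in heart. HumanlincRNA2473+ (chrX:137417888-137439263) read 6.32 and 13.92 in plasma (7.60 ± 0.24), with 6.82 and 6.60 in whole blood and no detection in heart. HumanlincRNA0324- read 10.32 and 17.06 in plasma (6.73 ± 0.20). In whole blood it read 10.46 and 10.76. HumanlincRNA0671+ changed by 5.92 ± 0.21 and humanlincRNA0406+ (chr9:51901118-51903435) by 5.78 ± 0.28. In control and HF whole blood these read 7.49 and 7.98, and 6.85 and 6.67. None of the 5 rises was seen in whole blood, and the neighbours shifted by at most 0.23 either way.

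The largest falls in plasma were those of humanlincRNA1921+, from 10.98 to 7.25 (-3.73 ± 0.22), and humanlincRNA2314-, from 12.45 to 9.67 (-2.79 ± 0.20), whose neighbours rose by 1.05. HumanlincRNA0736+ changed by -2.38 ± 0.22, humanlincRNA1016+ by -2.06 ± 0.24 and humanlincRNA2316+ by -2.04 ± 0.25. Detection added 90 members counted in the HF mixture only and 73 in the control mixture only. These were 28.5% and 23.1% of the 316 detected on either, against 19.9% and 30.5% among all probes. Apart from spots that were bright on the other array but marked as outliers there, 86 and 72 remained. HumanlincRNA0970-, so marked in control plasma, read 14.54 there and 7.07 in HF plasma. Among the 86, humanlincRNA2294+ (chr15:65423157-65524929) read 13.97 in HF plasma and was at least 645-fold higher than in control plasma. HumanlincRNA0083- was at least 269-fold and humanlincRNA0830+ at least 111-fold higher. HumanlincRNA2294+ and humanlincRNA0083- were detected on no other array, and humanlincRNA0830+ also in control heart and HF whole blood.

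The members nearest to the 2-fold limit show how fine the line is between called and not called. In heart, humanlincRNA1151+ at 1.02 and humanlincRNA1812+ at -1.04 were just inside, and humanlincRNA0970- at 0.90 and humanlincRNA2242+ at -0.99 just outside. In whole blood, humanlincRNA1921+ at 1.06 and humanlincRNA1884+ at -1.02 were inside, and humanlincRNA0246- and humanlincRNA0520- at 0.99 and -0.99 outside. In plasma, humanlincRNA2312- at 1.02 and humanlincRNA1396- at -1.10 were inside, and humanlincRNA0388+ at 0.99 and humanlincRNA1094+ at -0.98 outside. The median error within the arrays of such a change was 0.24 in heart, 0.24 in whole blood and 0.23 in plasma.

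The + and - probes of a number could be compared where both were detected on both arrays of a tissue. This held for 9 numbers in heart, 11 in whole blood and 15 in plasma. Of all members detected on both arrays, 83.6% in heart, 60.8% in whole blood and 29.4% in plasma had a negative change. The pair counts below were not set beside pairs of unrelated probes. Nothing particular to the 2 probes of a number is read from them. In heart the changes of both probes had the same sign in 8 of the 9, though 7 numbers were at least 2-fold changed on 1 probe only, with a median absolute difference of 0.72 between their log2 fold changes. The difference was above 2 errors within the arrays in 5 of the 9. HumanlincRNA0671 differed most, with its + probe at -1.96 and its - probe at -0.04. HumanlincRNA0926 had 0.05 and -1.17, and humanlincRNA2163 had -0.34 and -1.53. Only humanlincRNA2397 was at least 2-fold changed on both probes, at -1.07 for the + probe and -1.38 for the - probe.

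In whole blood 6 of 11 numbers had changes of opposite sign on the + and - probe, 2 of them at least 2-fold on both, and 10 of 11 differed by more than 2 errors. HumanlincRNA2410 (chrX:18233776-18257007) held both the largest rise and the second largest fall of the tissue. Its + probe read 7.13 in control and 10.99 in HF whole blood, and its - probe 9.55 and 5.85, a difference of 7.56 between the log2 fold changes. HumanlincRNA1094 (chr1:39196639-39216740) changed by 1.91 on the + and -2.65 on the - probe, and humanlincRNA0305 by 0.76 and -2.73. HumanlincRNA1396 was the only number changed at least 2-fold in the same direction on both, at 1.22 and 2.38.

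In plasma 6 of 15 numbers had opposite signs, 3 of them at least 2-fold on both probes, and 13 differed by more than 2 errors. HumanlincRNA2473 changed by 7.60 on the + probe and -0.29 on the - probe, so that its large rise was seen on 1 probe. The same held for humanlincRNA0671, at 5.92 and 0.02. HumanlincRNA2113 changed by -1.83 and 3.66, where the neighbours of its - probe fell by 1.36. HumanlincRNA1016 alone was at least 2-fold changed in the same direction on both probes, at -2.06 and -1.38. The median absolute difference was 1.67 in whole blood and 1.35 in plasma, with a median error of 0.32 and 0.31, and 0.72 with an error of 0.37 in heart. Whether heart and blood differ in this was not tested.

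**Figure D4:**
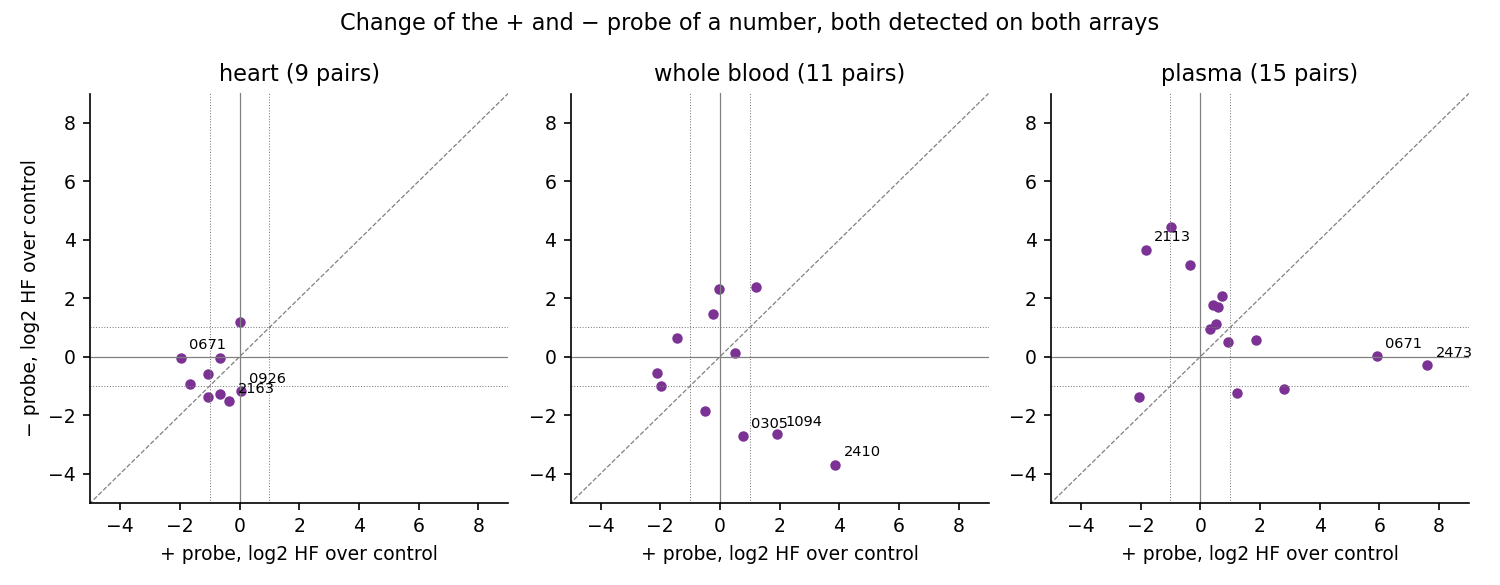
Log2 HF over control of the - probe (y axis) against that of the + probe (x axis) for numbers with both probes detected on both arrays of a tissue. Each point is 1 number, the dashed line marks equal change, the dotted lines 2-fold changes, and the 3 numbers with the largest difference are labelled. In whole blood humanlincRNA2410 lies at 3.86 and -3.70, and in plasma humanlincRNA2473 at 7.60 and -0.29.

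Across tissues, 189 members were detected on both arrays of at least 1 tissue, and 131 of them were changed at least 2-fold in at least 1, 57 of them in more than 1. These counts were not set beside all probes, many of which also changed at least 2-fold in each tissue. Nothing particular to the members is read from them. Of the 87 members detected on both arrays of heart and of plasma, 56 (64.4%) had changes of opposite sign, against 58.6% of all probes. Of these 87, 16 (18.4%) were at least 2-fold lower in HF heart and higher in HF plasma, against 8.14% of all 9108 probes detected on these arrays. Among the 87, 2 were lower in both and none was higher in both. The 16 members are part of the 40 that were lower in heart and make up 48.5% of the 33 that were higher in plasma. Of 80 members detected on both arrays of heart and of whole blood, 26 (32.5%) were at least 2-fold lower in both and 3 lower in heart and higher in whole blood, against 8.61% and 2.09% of all probes. Signs were opposite in whole blood and plasma, whose controls were nearly alike, in 64 of 98 members (65.3%) and in 49.7% of all probes. Such counts also follow from the members' shift within each tissue, so no relation between tissues is read from them.

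A change of at least 2-fold in heart, whole blood and plasma was found for 9 of the 71 members detected on all 6 arrays (12.7%), and for 7.27% of all probes so detected. All 9 were lower in HF heart and 8 were higher in HF plasma. These directions were not set beside those of all probes, and they also follow from the members' shift within each tissue. In 5 of them whole blood fell like heart. HumanlincRNA0498- changed by -1.93 in heart, -2.46 in whole blood and 2.18 in plasma. HumanlincRNA0997+ read 5.91 and 4.80 in control and HF heart, 9.80 and 7.71 in whole blood and 9.42 and 13.26 in plasma, with changes of -1.11, -2.10 and 3.85. HumanlincRNA0813+ changed by -1.34, -2.09 and 3.02, humanlincRNA2397- by -1.38, -1.87 and 1.76, and humanlincRNA1773+ by -1.50, -1.40 and 1.06. In 3 members whole blood rose with plasma. HumanlincRNA0847- read 11.53 and 9.18 in heart, 10.80 and 11.88 in whole blood and 11.16 and 14.31 in plasma, with changes of -2.34, 1.07 and 3.15. HumanlincRNA2159- changed by -1.78, 2.14 and 2.58, and humanlincRNA1396+ by -1.07, 1.22 and 2.82. HumanlincRNA2410- was the 1 member lower in all, at -1.27, -3.70 and -1.25. With the 75th percentile 6 of the 9 still changed in every tissue, without humanlincRNA0847- (0.35 in whole blood), humanlincRNA1396+ (-0.89 in heart) and humanlincRNA1773+ (0.43 in plasma), and with normexp 2 did. At the opposite end, 7 members detected on all 6 arrays stayed within 2-fold in every tissue, among them humanlincRNA0671- with changes of -0.04, 0.13 and 0.02. That count was not set beside all probes.

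**Figure D5:**
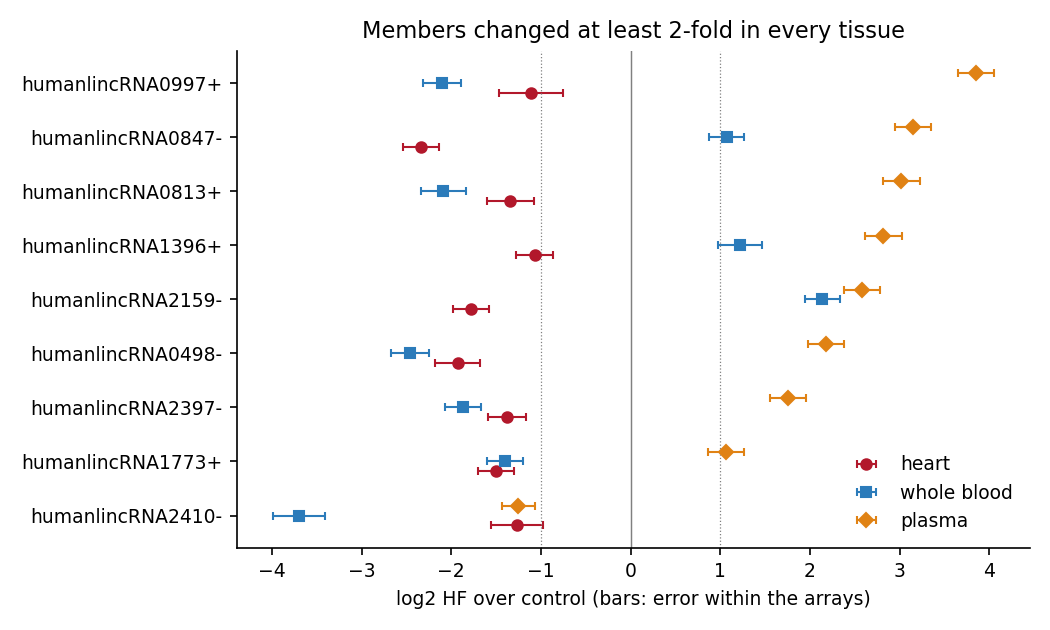
Log2 HF over control (x axis) of the 9 members detected on all 6 arrays and changed at least 2-fold in heart (red circles), whole blood (blue squares) and plasma (orange diamonds). Bars are errors within the arrays, 1 array per condition, and dotted lines mark 2-fold. All 9 lie below 0 in heart, and all but humanlincRNA2410- lie above 0 in plasma.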

How the data were processed

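Heart, whole blood and plasma of HF and control mice were measured on 6 arrays of 1 colour, 1 mixture each, with groups taken from the sample labels. The authors' scanner files hold an intensity for each spot, made with Agilent Feature Extraction 11.0.1.1, which subtracts the background. The deposited intensities were not normalized between arrays, and the deposited table of all arrays holds the same values (0 differ at a relative tolerance of 1e-06). Quantile normalization and a 2-fold limit follow the study's methods, which kept probes flagged Present or Marginal, while detection here was stricter.

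Per the labels, RNA was depleted of rRNA and amplified by random priming. Here, without control spots, each probe took the mean of its spots on the log2 scale, and all 59729 probes entered a quantile normalization across the 6 arrays. The deposited flags (other columns of 0 and 1) gave detection, as well above background and no outlier on most spots. Changed members were those with detection in HF and control and a difference of 2-fold or more. The precision of a value is limited by the 1 array per condition.

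The members were set by their name alone. This probe set was taken up, and the marker lists and rules were chosen, with earlier results of these data known. In each tissue the 5 largest rises and falls, the 3 largest lower limits, the 3 strand pairs with the largest difference and up to 3 changed alike were named, besides the 5 brightest members, those changed in every tissue and those nearest to the 2-fold limit. Marker genes were named through the study's mRNA list and RefSeq accessions, and no hepatocyte gene was matched. The results of the platelet, T cell, B cell and fibroblast lists are given at the end. Alternatives were quantile normalization within each pair or within heart and blood, scaling by the 75th percentile, normexp with an offset of 50 on the median signals, a weaker flag, outlier flags ignored, no detection filter, members detected on all 6 arrays, and folds of 1.5 and 4. Leaving out members with shifted neighbours was added after seeing the data. The steps were tested on simulated data. Python 3.11.15, numpy 2.4.6, pandas 2.3.3, matplotlib 3.10.9, R 4.3.3 and limma 3.58.1 were used.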

Additional observations from a re-analysis of the deposited data

Results flagged for a closer look

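Members changed at least 2-fold in every tissue were flagged where heart and plasma moved in opposite directions. With 1 mixture per condition, the difference between the tissues was not tested. Of members detected on both arrays of heart and of plasma, 64.4% had opposite signs, against 58.6% of all probes. Such directions also follow from the members' shift within each tissue. In plasma, HF against control cannot be told apart from plasma against whole blood. HumanlincRNA0498- changed by -1.93 in heart and 2.18 in plasma on the log2 scale. HumanlincRNA0813+ changed by -1.34 and 3.02, and humanlincRNA0847- by -2.34 and 3.15. HumanlincRNA0997+ changed by -1.11 and 3.85, and humanlincRNA1396+ by -1.07 and 2.82. HumanlincRNA1773+ changed by -1.50 and 1.06, humanlincRNA2159- by -1.78 and 2.58, and humanlincRNA2397- by -1.38 and 1.76. With the 75th percentile humanlincRNA1396+ was at -0.89 in heart, humanlincRNA1773+ at 0.43 in plasma and humanlincRNA0847- at 0.35 in whole blood.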

How the results depend on the processing

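No paired analysis was possible because each condition had 1 array, and for the same reason no replicate could be left out. Ignoring the outlier flags, or normalizing heart and blood apart, left all 23 and all 14 results within 1.5 times or within the error within the arrays. With the weaker flag (positive and significant), 557, 336, 408, 464, 547 and 591 members were detected in control and HF heart, whole blood and plasma, 18, 60 and 148 were higher and 85, 90 and 66 lower in heart, whole blood and plasma, the medians in heart and whole blood were -0.55 and -0.18, 47, 37 and 69 pairs had both probes detected and 4, 8 and 14 both changed, and 110 members changed in at least 2 tissues and 19 in all. With no detection filter, 31, 169 and 263 members were higher and 122, 198 and 124 lower, the medians were 0.02, -0.01 and 0.05, and 244 and 37 changed in at least 2 and in all tissues. In whole blood 67.5% of the negative control spots then passed 2-fold, and 806 members shared the lowest value in control whole blood. The whole blood counts therefore carry no order. In heart and plasma 1.95% and 2.92% of these spots passed, and 624 members shared the lowest value in HF plasma. Among members detected on all 6 arrays, 0, 14 and 26 were higher, 8 were lower in plasma and the median in heart was -1.07. Normexp gave 1 higher and 19 lower in heart with a median of -0.44. Among all probes detected on both heart arrays, these values were 1024, 1299 and 0.01. Normexp also gave 0 pairs changed on both probes in heart, and 35 members changed in at least 2 tissues and 3 in all. It turned humanlincRNA0381+ in heart to -0.85. The 75th percentile gave 0 pairs changed on both probes in heart and 5 in whole blood, and normalization within each pair gave 14 members changed in every tissue. At 1.5-fold, 9 members were higher in heart, 4, 6 and 7 pairs changed on both probes and 30 members changed in every tissue. At 4-fold, 2, 8 and 39 were higher and 2, 23 and 6 lower, 0, 1 and 0 pairs changed on both probes, and 10 and 0 members changed in at least 2 and in all tissues. Without members beside shifted neighbours, 2 were higher in heart. Counts of changed members with another flag, filter or fold were not set beside all probes under the same setting. Nothing particular to the members is read from those counts. The causes were not tested. Of 138 changes of named members, 91 were at least 2-fold, of which 83 kept that size with the 75th percentile, 68 with normexp and 91 with each other normalization, and the sign changed for 9 with the 75th percentile and 7 with normexp, of which 1 had been at least 2-fold.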

Other observations

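Of 2 matched platelet genes (of 6 in the list), both were detected on all arrays, with a summed log2 level of 13.28 in control plasma and 7.67 in HF plasma. Of 4 matched fibroblast genes (of 5), 4 were detected on each heart array, with 1 (control) and 4 (HF) detected in whole blood and 3 (control) and 1 (HF) in plasma. Of 2 matched B cell genes (of 4), the summed log2 level was 11.40 in control and 7.05 in HF whole blood. Of 2 matched T cell genes (of 5), between 1 and 2 were detected on each array, and the summed log2 level was 9.33 in control and 9.99 in HF whole blood.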
